A study of Mus musculus with 4 samples.

Results

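Interferon-stimulated genes are switched on when a cell receives an interferon signal, and 37 of them were followed here across 4 libraries of cultured mouse leukaemia cells. The 37 were found by gene symbol among 21917 symbols, with the highest of a symbol's transcript rows standing for the gene. They comprised 28 targets of type I interferon, 5 GTPases of the interferon gamma response and 4 genes of antigen processing. The libraries were RNA sequencing libraries, made from total RNA, of C57BL/6 bone marrow leukaemic cells, all carrying an MLL-AF9 knock-in allele, a fusion oncogene of acute leukaemia. Meis1f/f cells also carried floxed Meis1, a homeobox transcription factor gene, and CreER, a recombinase that 4-hydroxytamoxifen (4-OHT) activates. They were sequenced after 1000 nM 4-OHT for 24 h and after vehicle. Control cells, labelled with MLL-AF9 alone and no CreER, were sequenced after the same 4-OHT exposure and after vehicle. All cells grew with SCF, IL-3, GM-CSF and IL-6 at 10 ng/ml. Each of the 4 groups was 1 library, so no difference has a replicate check and none was tested. The sources used here do not say how many cultures or animals stood behind a library, and the 2 genotypes were separate cell populations.

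Type I interferons bind the receptor chains IFNAR1 and IFNAR2, whose kinases JAK1 and TYK2 activate STAT proteins, STAT2 among them. With IRF9, STAT2 takes part in a complex that binds the interferon-stimulated response element (ISRE) in promoters, while interferon gamma acts at the gamma-activated sequence (GAS) and through IRF1. The products sense viral nucleic acid, block viral replication, remodel the proteasome for antigen display and, through factors such as IRF7 and USP18, raise or dampen the response itself; macrophages and related myeloid cells are known to keep a basal level of this program.

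The promoters are shown because the genes were grouped by the signal they answer to. RefSeq promoter windows (mouse build GRCm38.p6, 250 bases before to 50 after each start) were found for 28 of the 37 genes, in 32 windows. The ISRE was searched as TTTCNNTTTC and the GAS as TTCNNNGAA, on both strands, with overlapping matches counted. An ISRE match stood in 16 of the 32 windows (50%), against 3.44% of all 32851 promoter windows. A GAS match stood in 8 (25%), against 8.30% of all windows. By group, windows with an ISRE match were 11 of 23 for the type I targets, 4 of 5 for the GTPases and 1 of 4 for antigen processing. Windows with a GAS match were 6 of 23, 1 of 5 and 1 of 4 in the same order, so this motif did not set the GTPases apart. A match describes the letters only. The stretches below, 5′ to 3′ on the strand of the gene and ending before its start, mark the matches in capitals; the first 6 hold ISRE matches, and those of Irf1 and Psmb8 a GAS match.
Isg15 (chr4:156200850-156200921, minus strand): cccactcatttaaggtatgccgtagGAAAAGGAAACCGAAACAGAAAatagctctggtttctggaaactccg
Ifit1 (chr19:34640760-34640838, plus strand): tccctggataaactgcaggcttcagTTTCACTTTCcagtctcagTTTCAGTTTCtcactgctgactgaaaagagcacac
Oas1a (chr5:120907526-120907570, minus strand): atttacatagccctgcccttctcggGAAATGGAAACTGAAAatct
Gbp3 (chr3:142559974-142560039, plus strand): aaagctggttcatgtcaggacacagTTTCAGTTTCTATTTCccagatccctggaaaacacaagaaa
Irgm1 (chr11:48871421-48871475, minus strand): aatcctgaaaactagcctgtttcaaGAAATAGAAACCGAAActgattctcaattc
B2m (chr2:122147523-122147582, plus strand): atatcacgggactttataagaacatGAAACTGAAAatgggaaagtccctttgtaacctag
Irf1 (chr11:53769899-53769957, plus strand): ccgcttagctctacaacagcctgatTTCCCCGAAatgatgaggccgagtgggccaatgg
Psmb8 (chr17:34198073-34198131, plus strand): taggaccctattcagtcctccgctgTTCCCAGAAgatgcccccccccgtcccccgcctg

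Tap1 and Psmb9 are divergent neighbours whose starts lie 226 bases apart on chromosome 17, so both genes face the same 225 bases of DNA. That stretch is shown because both genes appear among the antigen processing results; neither motif was found in it or in the rest of their windows.
Tap1 and Psmb9 (chr17:34187331-34187555, plus strand, the sense of Tap1): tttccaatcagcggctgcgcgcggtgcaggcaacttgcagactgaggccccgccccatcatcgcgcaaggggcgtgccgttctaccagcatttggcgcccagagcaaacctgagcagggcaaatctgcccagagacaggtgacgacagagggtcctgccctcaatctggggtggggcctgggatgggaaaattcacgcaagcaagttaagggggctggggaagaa

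Levels are the authors' FPKM, fragments scaled by transcript length and by the number of mapped fragments. Differences were taken between values of log2(FPKM + 1), so that the change of a low gene is understated, and a gene was called higher or lower at a difference of at least 1. Calls covered symbols at 1 FPKM or more in at least 1 library, which were 10922 of all symbols and 28 of the 37 genes. Estimated depth, in M reads (1000000 reads), was 18.4 and 43.1 in Meis1f/f cells after 4-OHT and after vehicle, and 22.2 and 28.5 in control cells after 4-OHT and after vehicle. One read on a transcript of 2 kb was therefore worth 0.0116 to 0.0272 FPKM. Ratios of levels are given with 95% exact binomial intervals from estimated reads, which cover counting error only. Meis1, the targeted gene, stood at 7.38 and 11.8 FPKM in Meis1f/f cells after 4-OHT and after vehicle, and at 12.1 and 11.6 FPKM in control cells after 4-OHT and after vehicle. By the sheet names, lane 1 of the sequencer held the Meis1f/f vehicle cells and lane 2 the other 3 libraries, so lane and this group cannot be told apart. In these bulk libraries fewer cells of a type and less RNA per cell cannot be told apart either.

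The genes spanned a wide range of levels, and the groups differed in it. Antigen processing genes had a median of 66.8 FPKM over genes (mean of the 4 libraries, 13.2 to 559), the GTPases 3.25 FPKM and the type I targets 1.504 FPKM (0.0275 to 43.6). Under 1 FPKM in every library were 9 of the 37, of which 8 were type I targets. They were Ifit1 and Ifit3, which bind foreign RNA, Oas2, Oasl1 and Oasl2 of the oligoadenylate synthetase family, the dynamin-like antiviral GTPases Mx1 and Mx2, Ifi44, and Gbp6, a guanylate-binding protein gene. Ifi44 was listed at 0 in 3 libraries and at 0.110 FPKM in control vehicle cells. Mx2 was listed at 0 in both Meis1f/f libraries and stood at 0.0703 and 0.0976 FPKM in control cells after 4-OHT and after vehicle. Over the 4 libraries Oasl2 ranged from 0.238 to 0.4003 FPKM, Mx1 from 0.223 to 0.374, Oas2 from 0.116 to 0.310 and Ifit3 from 0.0531 to 0.171 FPKM. Oasl1 ranged from 0.0148 to 0.0960 FPKM and Gbp6 from 0.00840 to 0.251 FPKM. For Gbp6 the 4-OHT to vehicle ratio was 0.0364 (0.00135 to 0.320) in Meis1f/f cells, on an estimated 0.666 reads after 4-OHT, and 0.302 (0.108 to 0.671) in control cells. The other 28 included the light chain of class I molecules, B2m, at up to 749 FPKM.

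**Figure D1:**
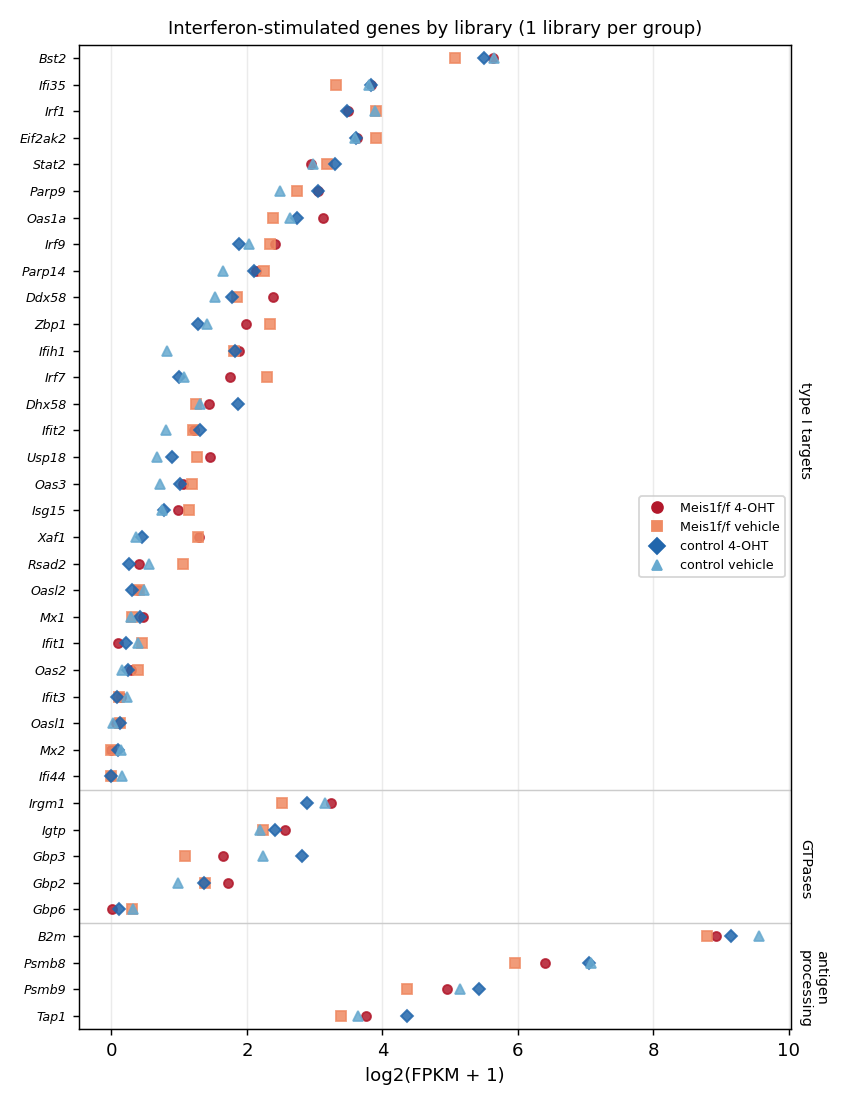
FPKM of the 37 interferon-stimulated genes on the log2(FPKM + 1) scale, grouped by role, with 1 symbol per library (4 libraries, 1 per group). Most type I targets lie near the left edge, while the 4 antigen processing genes lie between 9.48 (Tap1) and 749 FPKM (B2m).

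None of the interferon genes on the ligand list reached 1 FPKM in any library. Other interferon genes were not looked up. All 11 ligand genes with a row were below it, 9 of them listed at 0 in all 4 libraries, among them Ifnb1 and Ifng, the genes of interferon beta and gamma. The highest ligand value was 0.102 FPKM. Receptors and kinases were present, with 9 of 10 genes at the 1 FPKM floor and none called in any of the 5 comparisons, in which 2.25% to 7.95% of all symbols were called. Ifnar1, a chain of the type I receptor, had 10.7 and 13.7 FPKM in Meis1f/f cells after 4-OHT and after vehicle, and 13.1 FPKM in both control libraries. Stat3, a transducer of IL-6 signals, had 22.3 and 20.6 FPKM in Meis1f/f cells after 4-OHT and after vehicle, and 16.7 and 26.3 FPKM in control cells after 4-OHT and after vehicle. With its 3 transcript rows summed, Stat3 had 25.8 and 31.4 FPKM in Meis1f/f cells and 25.8 and 35.4 FPKM in control cells. The 4-OHT order in Meis1f/f cells was thus turned.

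With 4-OHT, none of the 28 genes at the floor was called against vehicle in Meis1f/f cells, the cells that carry CreER. Over all symbols 3.91% were called in either direction (1.63% higher, 2.28% lower), so no call among 28 says little about these genes. Ratios of 4-OHT to vehicle there still went both ways, such as 0.300 for Rsad2 and 1.81 for Oas1a. With a pseudocount of 0.1 Rsad2, which passed the floor only through the Meis1f/f vehicle library, was called lower. The median log2 difference of the 28 was 0.16, against 0.11 over all symbols. In control cells 1 of the 28 was called, Ifih1, higher after 4-OHT, against 2.25% of all symbols (1.37% higher, 0.879% lower), and the median was 0.16, against 0.05. For the difference between the 4-OHT effects (Meis1f/f minus control) none was called, against 5.74% of all symbols (2.11% higher, 3.63% lower). Its median over the 28 was -0.07, against 0.06 over all symbols.

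Between genotypes the shares called stayed near those over all symbols. Under vehicle, 3 of the 28 were called in Meis1f/f against control cells, Irf7 higher and Gbp3 and Psmb8 lower. The share called was 7.95% of all symbols (5.84% higher, 2.11% lower). Under 4-OHT 1 was called, Gbp3 lower, against 5.33% of all symbols (3.72% higher, 1.61% lower). Gbp3 was thus called the same way in both genotype comparisons, as were 2.88% of all symbols. The medians of the 28 were 0.28 under vehicle and 0.05 under 4-OHT, against -0.06 and 0.00 over all symbols. The median under vehicle turned to -0.48 over the 13 genes that reach 5 FPKM in at least 1 library, and that of the difference of the 4-OHT effects turned to 0.31.

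The genotype comparisons under vehicle and under 4-OHT share no library, though they share the cell populations. Of the 28 genes, 22 had the same sign in both (78.6%), 16 above 0 and 6 below, against 61.8% of all symbols. Across the 28 genes, which are not independent, Pearson's r between both genotype differences was 0.70 and Spearman's rho 0.64; over all symbols the values were 0.52 and 0.38. With a pseudocount of 5 the calls of Irf7 and Gbp3 were lost and that of Psmb8 was kept. Differences of at least 0.5 with the same sign in both were found for 6 genes (21.4%, against 8.64% of all symbols). Irf7, Usp18, Xaf1 and Zbp1 were on the higher side in Meis1f/f cells, and Gbp3 and Psmb8 on the lower side. Usp18 and Xaf1 passed the 1 FPKM floor only through the Meis1f/f libraries, which favours the higher side.

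**Figure D2:**
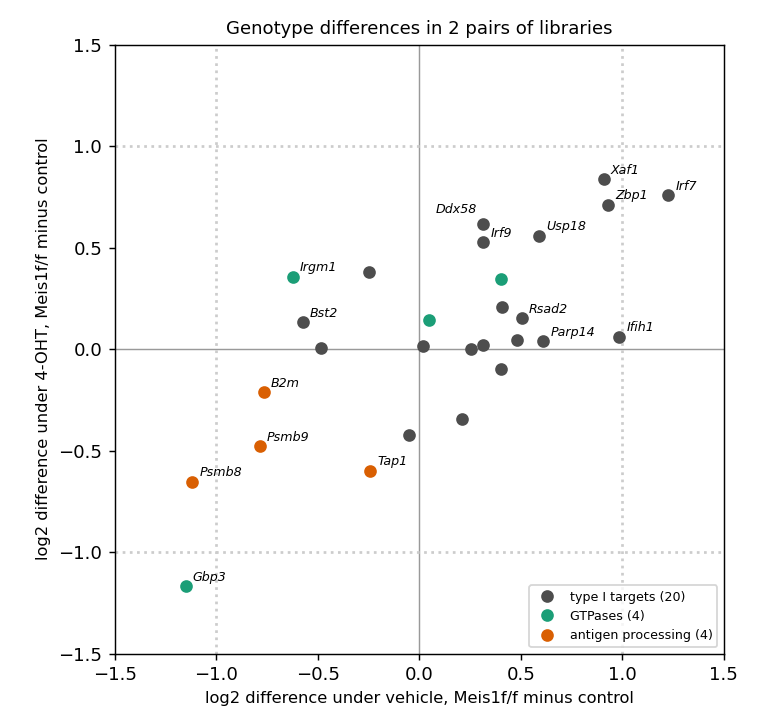
Log2 differences of Meis1f/f minus control cells under vehicle (horizontal) and under 4-OHT (vertical) for the 28 genes at the floor, coloured by role; dotted lines mark the size of 1 used for calls. Irf7, Zbp1 and Xaf1 stand at the upper right, and Gbp3 (-1.15 and -1.17) and the 4 antigen processing genes at the lower left.

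Among the transcription factors, Irf7, which amplifies type I interferon production, had 2.38 and 3.90 FPKM in Meis1f/f cells after 4-OHT and after vehicle, and 0.997 and 1.09 FPKM in control cells after 4-OHT and after vehicle. Both Meis1f/f libraries lay above both control libraries, and the share of all symbols with such an order is not given here. The ratio of Meis1f/f to control cells was 3.57 (2.67 to 4.81) under vehicle, a log2 difference of 1.23, and 2.38 (1.63 to 3.62) under 4-OHT, a difference of 0.76. Its promoter window held neither motif.

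Irf1, the factor that relays the gamma signal and whose promoter carries the GAS match shown above, had 10.3 and 14.0 FPKM in Meis1f/f cells after 4-OHT and after vehicle, and 10.2 and 13.8 FPKM in control cells after 4-OHT and after vehicle. Here the libraries paired by treatment and not by genotype. The 4-OHT to vehicle ratios were 0.736 (0.656 to 0.823) in Meis1f/f cells and 0.740 (0.660 to 0.829) in control cells, and neither difference was called. Irf9, the DNA-binding partner of STAT2, had 4.31 and 4.06 FPKM in Meis1f/f cells after 4-OHT and after vehicle, against 2.69 and 3.07 FPKM in control cells after 4-OHT and after vehicle. With its 3 transcript rows summed, Irf9 had 6.14 and 7.67 FPKM in Meis1f/f cells and 4.86 and 5.21 FPKM in control cells. The 4-OHT order in Meis1f/f cells was thus turned. Stat2 ranged only from 6.74 to 8.82 FPKM.

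Sensors of foreign nucleic acid gave the call in control cells. Ifih1, which encodes MDA5, a sensor of long RNA duplexes, had 2.68 and 2.49 FPKM in Meis1f/f cells after 4-OHT and after vehicle, and 2.53 and 0.760 FPKM in control cells after 4-OHT and after vehicle. The control vehicle library stood apart below the other 3. Its 4-OHT to vehicle ratio was 3.33 (2.69 to 4.16) in control cells, a log2 difference of 1.00, and 1.08 (0.931 to 1.25) in Meis1f/f cells, a difference of 0.08. The authors' table splits Ifih1 between 2 transcript rows of the same locus, and with both rows summed control vehicle cells had 1.44 FPKM, the log2 difference in control cells was 0.53 and the call was lost.

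Ddx58, which encodes RIG-I, had 4.24 and 2.60 FPKM in Meis1f/f cells after 4-OHT and after vehicle, and 2.42 and 1.89 FPKM in control cells after 4-OHT and after vehicle. Dhx58, which encodes their regulator LGP2, was highest in control cells after 4-OHT at 2.64 FPKM and between 1.38 and 1.71 FPKM in the other 3 libraries. Zbp1, a sensor of Z-form nucleic acid that can trigger necroptosis, had 2.95 and 4.07 FPKM in Meis1f/f cells after 4-OHT and after vehicle, against 1.41 and 1.66 FPKM in control cells after 4-OHT and after vehicle. For Zbp1 the ratio of Meis1f/f to control cells was 2.45 (1.69 to 3.62) under vehicle and 2.09 (1.25 to 3.64) under 4-OHT.

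Among the antiviral effectors and regulators, Xaf1, which encodes a partner of the apoptosis inhibitor XIAP, had 1.45 and 1.42 FPKM in Meis1f/f cells after 4-OHT and after vehicle, against 0.370 and 0.291 FPKM in control cells after 4-OHT and after vehicle. Its ratio of Meis1f/f to control cells was 4.89 (3.05 to 7.83) under vehicle and 3.91 (2.40 to 6.80) under 4-OHT. It passed the 1 FPKM floor only through the Meis1f/f libraries, which favours a high ratio, and its log2 differences of 0.91 and 0.84 stayed under the call on a scale that shrinks low genes. Usp18, whose product removes ISG15 from proteins and dampens receptor signalling, had 1.73 and 1.40 FPKM in Meis1f/f cells after 4-OHT and after vehicle, and 0.853 and 0.596 FPKM in control cells after 4-OHT and after vehicle.

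Rsad2, which encodes viperin, ran with treatment in both genotypes without a call. It had 0.323 and 1.08 FPKM in Meis1f/f cells after 4-OHT and after vehicle, and 0.191 and 0.463 FPKM in control cells after 4-OHT and after vehicle. The 4-OHT to vehicle ratios were 0.300 (0.179 to 0.458) in Meis1f/f cells and 0.412 (0.218 to 0.734) in control cells. Rsad2 passed the 1 FPKM floor only through the Meis1f/f vehicle library, which favours a low ratio in Meis1f/f cells. Its ratio of Meis1f/f to control cells was 2.32 (1.69 to 3.25) under vehicle, which the floor favours too, and 1.69 (0.832 to 3.38) under 4-OHT. Ifit1, under the floor, had 0.0652 and 0.370 FPKM in Meis1f/f cells after 4-OHT and after vehicle, and 0.161 and 0.312 FPKM in control cells after 4-OHT and after vehicle.

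Isg15, a ubiquitin-like modifier of other proteins, reached only 0.983 and 1.22 FPKM in Meis1f/f cells after 4-OHT and after vehicle, and 0.715 and 0.673 FPKM in control cells after 4-OHT and after vehicle. Its 3 overlapping ISRE matches are those printed above. Oas1a, an oligoadenylate synthetase gene, had 7.66 and 4.24 FPKM in Meis1f/f cells after 4-OHT and after vehicle, and 5.67 and 5.23 FPKM in control cells after 4-OHT and after vehicle. Its ratio of 4-OHT to vehicle was 1.81 (1.54 to 2.13) in Meis1f/f cells and 1.08 (0.907 to 1.29) in control cells.

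Bst2 and Ifi35 were abundant type I targets. Bst2, which encodes tetherin, a protein that holds virions at the cell surface, had 48.5 and 32.6 FPKM in Meis1f/f cells after 4-OHT and after vehicle, and 44.1 and 49.0 FPKM in control cells after 4-OHT and after vehicle. Ifi35, which encodes a leucine zipper protein, had 13.2 and 8.95 FPKM in Meis1f/f cells after 4-OHT and after vehicle, and 13.2 and 12.9 FPKM in control cells after 4-OHT and after vehicle. For both genes the Meis1f/f vehicle library was the low value, as it was for 40.2% of all symbols. Eif2ak2, which encodes the RNA-activated kinase PKR, ranged from 11.0 to 13.9 FPKM. Parp9 and Parp14, of the ADP-ribosyltransferase family, ranged from 4.58 to 7.31 and from 2.12 to 3.77 FPKM, and Ifit2 and Oas3 from 0.740 to 1.48 and from 0.641 to 1.29 FPKM.

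Of the 20 type I targets at the floor, 16 lay above 0 in Meis1f/f against control cells under vehicle (80%, against 45.5% of all symbols) and 17 under 4-OHT (85%, against 50.7%), with median differences of 0.36 and 0.10. Isg15, Rsad2, Usp18 and Xaf1 among them reached 1 FPKM only in Meis1f/f libraries, so the floor itself favoured this sign for them. With no floor the median under vehicle was 0.24, against 0 over all symbols. At a floor of 5 FPKM the median under vehicle was 0.020. The sign also ran with level over all symbols. Under vehicle 1011 of 1570 symbols below the member median of 2.11 FPKM lay above 0, against 3961 of 9352 at or above it. Under 4-OHT the counts were 839 and 4703. The control vehicle library held the lowest value of 10 of the 20, against 26.9% of all symbols. Length ran beside some of the differences. Across the 28 genes Spearman's rho of transcript length with the 4-OHT difference was 0.55 in control cells, against 0.05 over all symbols. For the difference of the 4-OHT effects it was -0.63, against -0.26. For 4-OHT in Meis1f/f cells it was -0.22, against -0.24. For genotype it was 0.33 under vehicle and -0.10 under 4-OHT, against 0.25 and 0.03 over all symbols. The part of length in these results was not tested beyond the recalculation with the length trend removed.

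The GTPases of the gamma response act at the vacuoles of intracellular pathogens. Gbp3, a guanylate-binding protein gene with the overlapping ISRE matches shown above, had 2.13 and 1.12 FPKM in Meis1f/f cells after 4-OHT and after vehicle, and 6.03 and 3.72 FPKM in control cells after 4-OHT and after vehicle. Within each genotype the 4-OHT library was the higher. The ratio of Meis1f/f to control cells was 0.302 (0.244 to 0.375) under vehicle and 0.353 (0.280 to 0.439) under 4-OHT, with log2 differences of -1.15 and -1.17. The log2 difference of 4-OHT against vehicle was 0.56 in Meis1f/f cells and 0.58 in control cells.

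Its relative Gbp2 went the other way by genotype, at 2.28 and 1.61 FPKM in Meis1f/f cells after 4-OHT and after vehicle, and 1.58 and 0.970 FPKM in control cells after 4-OHT and after vehicle. Guanylate-binding protein genes are close copies, and the sources used here do not say how the authors divided reads between them. Irgm1, an immunity-related GTPase gene, had 8.49 and 4.74 FPKM in Meis1f/f cells after 4-OHT and after vehicle, and 6.41 and 7.86 FPKM in control cells after 4-OHT and after vehicle. Its ratio of 4-OHT to vehicle was 1.79 (1.56 to 2.07) in Meis1f/f cells and 0.816 (0.706 to 0.940) in control cells. The difference of these effects was 0.98, the greatest of the 28 genes and just under the call. Igtp, its relative, had 4.89 and 3.72 FPKM in Meis1f/f cells after 4-OHT and after vehicle, and 4.33 and 3.57 FPKM in control cells after 4-OHT and after vehicle.

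All 4 antigen processing genes were lower in Meis1f/f than in control cells in both genotype comparisons, as were 3575 of all 10922 symbols at the floor. Under vehicle Psmb8 was called (25% of the 4, against 7.95% of all symbols), and removal of the length trend ended this call (-0.90). The medians were -0.78 under vehicle and -0.54 under 4-OHT, against -0.06 and 0.00 over all symbols. Transcripts of Psmb9, B2m and Psmb8 had 806, 858 and 1223 bases and that of Tap1 2950, against a median of 2377.5 over the 28 genes. Psmb8, a catalytic subunit of the immunoproteasome, had 83.0 and 61.0 FPKM in Meis1f/f cells after 4-OHT and after vehicle, against 131 and 134 FPKM in control cells after 4-OHT and after vehicle. Its ratio of Meis1f/f to control cells was 0.456 (0.436 to 0.478) under vehicle and 0.633 (0.598 to 0.669) under 4-OHT. The log2 difference was -1.12 under vehicle and -0.65 under 4-OHT.

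Psmb9, another immunoproteasome subunit, had 29.8 and 19.6 FPKM in Meis1f/f cells after 4-OHT and after vehicle, against 41.9 and 34.5 FPKM in control cells after 4-OHT and after vehicle. Tap1, which encodes a chain of the peptide transporter and shares the printed stretch with Psmb9, had 12.5 and 9.48 FPKM in Meis1f/f cells after 4-OHT and after vehicle, and 19.5 and 11.4 FPKM in control cells after 4-OHT and after vehicle. For Tap1 the Meis1f/f value after 4-OHT lay above that of control vehicle cells. B2m had 486 and 440 FPKM in Meis1f/f cells after 4-OHT and after vehicle, against 563 and 749 FPKM in control cells after 4-OHT and after vehicle. All 4 genes had their lowest value in the Meis1f/f vehicle library, the library of lane 1, which was also the lowest for 40.2% of all symbols.

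Of 11 other class I presentation genes at the floor, 9 lay below 0 in Meis1f/f against control cells under vehicle (81.8%, against 54.4% of all symbols) and 6 under 4-OHT (54.5%, against 49.0%). Only Tap2 was called, under 4-OHT (9.09%, against 5.33% of all symbols). Tap2, the partner chain of TAP1, had 36.0 and 40.8 FPKM in Meis1f/f cells after 4-OHT and after vehicle, against 80.3 and 67.2 FPKM in control cells after 4-OHT and after vehicle. Its log2 differences were -0.71 under vehicle and -1.13 under 4-OHT. Calr and Pdia3, chaperones of class I loading in the endoplasmic reticulum, ranged from 629 to 1150 FPKM and from 369 to 488 FPKM. Each was lowest in Meis1f/f vehicle cells, as were 40.2% of all symbols.

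**Figure D3:**
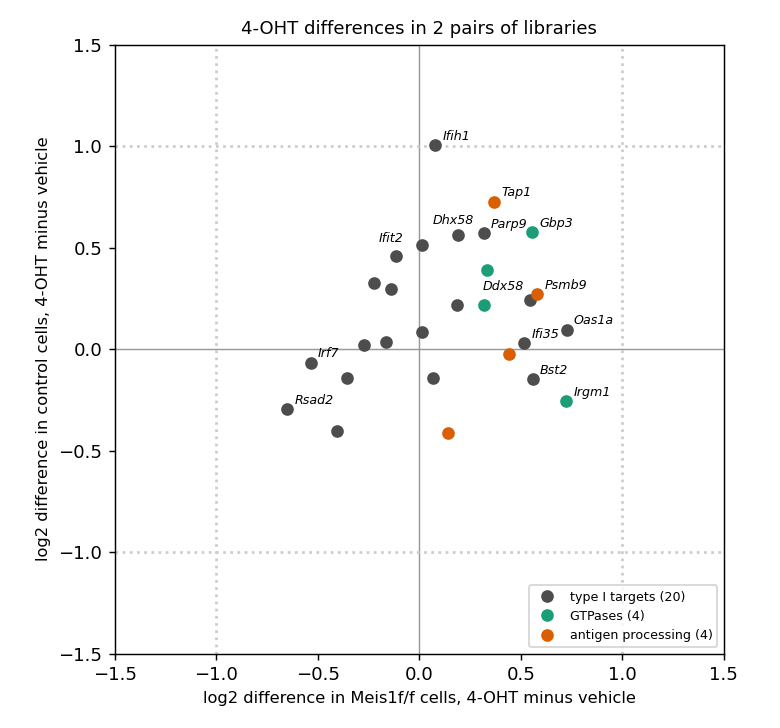
Log2 differences of 4-OHT minus vehicle in Meis1f/f cells (horizontal) and in control cells (vertical) for the 28 genes at the floor, coloured by role; dotted lines mark the size of 1. Ifih1 alone reaches the line, in control cells (1.00), and Irgm1 lies at 0.72 in Meis1f/f cells and -0.26 in control cells.

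Low and high expressed members were split at their median level of 2.11 FPKM. Of the 18 low ones 9 passed the floor, and for all 9 the 4-OHT difference was lower in Meis1f/f than in control cells, with a median of -0.35. Over all symbols below the same level 60.6% had that sign, with a median of -0.13. The 19 high expressed members had a median of 0.10, against 0.09 over all symbols at or above that level. Under vehicle the low members lay at a median of 0.48 in Meis1f/f against control cells and the high ones at 0.02, against 0.18 and -0.10 over all symbols of those levels. Of the 9 low members at the floor, 8 were under 1 FPKM in at least 1 library, so most passed only through the libraries where they are high.

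**Figure D4:**
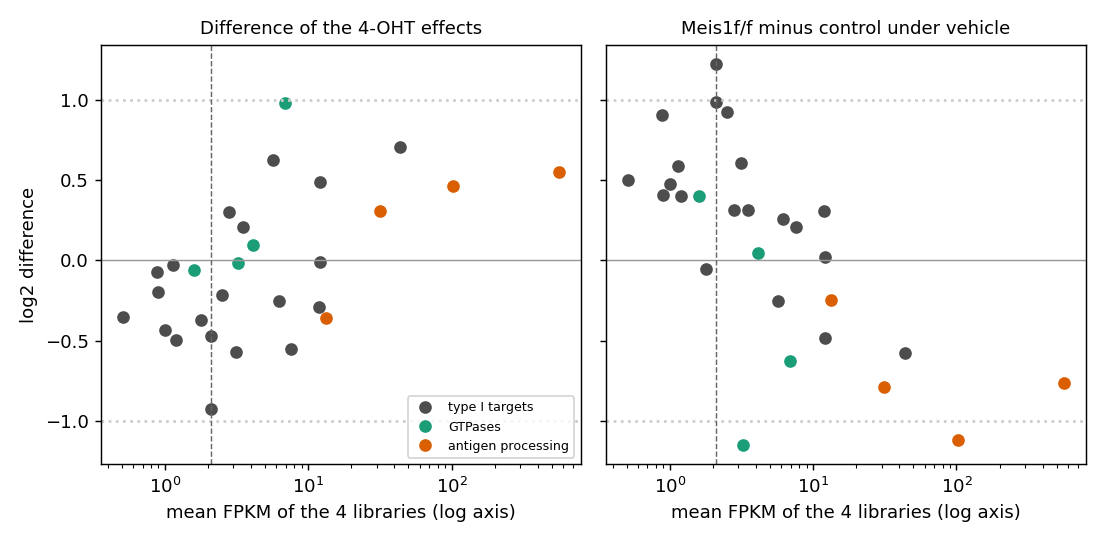
Log2 differences of the 28 genes at the floor against their mean FPKM (log axis), for the difference of the 4-OHT effects, Meis1f/f minus control (left), and for Meis1f/f minus control cells under vehicle (right); the dashed line is the member median of 2.11 FPKM. All 9 genes left of the line in the left panel lie below 0, and the 4 antigen processing genes in the right panel all lie below 0.

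Upstream of these genes, 15 of 17 genes of sensing and adaptors were at the floor, and 4 were called between genotypes under vehicle (26.7%, against 7.95% of all symbols). Tmem173, which encodes the DNA-response adaptor STING, had 19.4 and 9.60 FPKM in Meis1f/f cells after 4-OHT and after vehicle, against 24.2 and 32.4 FPKM in control cells after 4-OHT and after vehicle. It was called lower in Meis1f/f cells under vehicle (-1.66). Irf4, a lymphoid and dendritic factor, had 6.08 and 15.9 FPKM in Meis1f/f cells after 4-OHT and after vehicle, against 4.03 and 4.48 FPKM in control cells after 4-OHT and after vehicle. It was called higher in Meis1f/f cells under vehicle (1.63) and lower after 4-OHT in Meis1f/f cells (-1.26).

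Irf5, a factor of inflammatory cytokine genes, had 20.2 and 28.0 FPKM in Meis1f/f cells after 4-OHT and after vehicle, against 17.6 and 12.1 FPKM in control cells after 4-OHT and after vehicle, and was called higher under vehicle (1.15). Irf8, a myeloid lineage factor, was called lower under vehicle (-1.22), at 13.4 and 8.40 FPKM in Meis1f/f cells after 4-OHT and after vehicle, against 26.0 and 20.9 FPKM in control cells after 4-OHT and after vehicle. No gene of this list was called between genotypes under 4-OHT, against 5.33% of all symbols, and none by 4-OHT in control cells, against 2.25%.

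All 5 feedback genes were at the floor. Socs3, an inhibitor of cytokine receptor signals, had 5.96 and 16.0 FPKM in Meis1f/f cells after 4-OHT and after vehicle, and 11.7 and 18.6 FPKM in control cells after 4-OHT and after vehicle. It was called lower after 4-OHT in Meis1f/f cells (-1.29), while control cells differed by -0.62. Socs1, its relative, was called higher in the genotype comparison under 4-OHT (1.33), at 37.0 FPKM in Meis1f/f cells against 14.1 FPKM in control cells. Under vehicle Socs1 had 52.2 FPKM in Meis1f/f cells against 26.0 FPKM in control cells, a log2 difference of 0.98, just under the call. Socs3 and Socs1 were each the only call of the 5 in that comparison (20% each, against 3.91% and 5.33% of all symbols). Ptpn2, a phosphatase that acts on JAK and STAT proteins, ranged from 33.4 to 44.7 FPKM, and Pias1, an inhibitor of STAT proteins, from 11.1 to 16.1 FPKM.

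The 8 genes that control the cell's own nucleic acids gave no call in the 4-OHT or genotype comparisons, in which 2.25% to 7.95% of all symbols were called. In the difference of the 4-OHT effects 1 was called (12.5%, against 5.74% of all symbols), Isg20, an exonuclease gene (-1.03). Isg20 has 2 transcript rows, and with both summed its difference was -0.74 and the call was lost. Adar, the RNA-editing deaminase gene, ranged from 4.65 FPKM in control vehicle cells to 8.69 FPKM in Meis1f/f vehicle cells. Of the RNase H2 subunits, Rnaseh2c ranged from 43.0 to 76.0 FPKM and Rnaseh2a from 12.5 to 19.4 FPKM. Both were lowest in Meis1f/f vehicle cells, as were 40.2% of all symbols.

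Of 50 further interferon targets with a row, 39 were at the floor. By 4-OHT none was called in Meis1f/f cells, against 3.91% of all symbols, and 1 in control cells (2.56%, against 2.25%), Samd9l, an antiviral and growth-restraining gene. Samd9l had 6.55 and 7.64 FPKM in Meis1f/f cells after 4-OHT and after vehicle, and 10.8 and 3.52 FPKM in control cells after 4-OHT and after vehicle, with log2 differences of -0.19 and 1.39. Its lowest library was control vehicle, as for Ifih1. Between genotypes 4 were called under vehicle and 4 under 4-OHT, each time 3 higher and 1 lower in Meis1f/f cells (10.3% each, against 7.95% and 5.33% of all symbols). The list medians of 0.24 and 0.17 compare with -0.06 and 0.00 over all symbols. Ifi47, an immunity-related GTPase gene, had 9.48 and 5.16 FPKM in Meis1f/f cells after 4-OHT and after vehicle, and 7.57 and 8.27 FPKM in control cells after 4-OHT and after vehicle, the order seen for Irgm1. Ifi30, a lysosomal thiol reductase gene, ranged from 54.9 FPKM in Meis1f/f vehicle cells to 95.1 FPKM in control vehicle cells.

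Summed levels of several marker lists differed between genotypes. The 5 mast cell and basophil markers, all above 1 FPKM in at least 1 library and none at 0, summed to 1826 and 2117 FPKM in Meis1f/f cells after 4-OHT and after vehicle, against 211 and 219 FPKM in control cells after 4-OHT and after vehicle. The 6 conventional dendritic markers summed to 461 and 347 FPKM in Meis1f/f cells after 4-OHT and after vehicle, against 249 and 182 FPKM in control cells after 4-OHT and after vehicle, and the 6 macrophage markers to 88.9 and 72.7, against 60.3 and 45.3 FPKM. The dendritic sum was mainly that of Cd74 and H2-Ab1. Flt3 and Zbtb46 of that list stayed under 1 FPKM in every library. Flt3 was lower in Meis1f/f than in control cells under vehicle, at 0.211 against 0.357 FPKM, and higher under 4-OHT, at 0.552 against 0.359 FPKM. The macrophage sum was mainly that of Emr1, Mrc1 and Csf1r. C1qb went the other way, at 1.16 and 2.79 FPKM in Meis1f/f cells against 3.33 and 3.27 FPKM in control cells, as did C1qa, and Csf1r was lower in Meis1f/f cells under 4-OHT, at 18.3 against 21.3 FPKM. The 3 erythroid markers summed to 26.0 and 21.1 FPKM in Meis1f/f cells and to 1.27 and 3.64 FPKM in control cells, after 4-OHT and after vehicle. Their part in the genotype differences of Irf7, Gbp3, Psmb8 and the other genes was not tested.

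Several defining lymphoid and plasmacytoid markers were at 0, while others of these lists were present. Cd3e, Cd4, Ms4a1 and Pax5, which define T and B cells, and the plasmacytoid marker Ly6d were listed at 0 in every library. Siglech, which defines plasmacytoid dendritic cells, a main source of type I interferon, was at most 0.0559 FPKM, so the summed plasmacytoid level of 50.7 and 35.4 FPKM in Meis1f/f cells and 48.7 and 52.5 FPKM in control cells, after 4-OHT and after vehicle, was mainly that of Bst2, with Tcf4 between 1.40 and 3.54 FPKM. The 7 T and NK markers summed to 60.9 and 58.2 FPKM in Meis1f/f cells and 72.0 and 84.3 FPKM in control cells, mainly Nkg7; Cd3g had 2.41 and 2.11 FPKM in Meis1f/f cells against 0.273 and 0 FPKM in control cells. The 5 B markers summed to 1.38 FPKM in both Meis1f/f libraries and 4.98 and 5.66 FPKM in control cells, mainly Cd79b. The 5 neutrophil genes, Elane and Mpo among them, which mark the granulocytic lineage of bone marrow, summed to between 6438 and 7584 FPKM in every library. S100a8 was the largest part of that sum, at 4620 and 4836 FPKM in Meis1f/f cells against 3254 and 3551 FPKM in control cells, after 4-OHT and after vehicle. Elane, Mpo and Camp went the other way, lower in Meis1f/f cells in both genotype comparisons. Ltf was higher in Meis1f/f cells under vehicle and lower under 4-OHT.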

How the data were processed

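Total RNA of 4 libraries was sequenced. The authors' deposited tables hold FPKM per RefSeq transcript, with transcript length and coverage (a mean read depth signal), per the file headers; reads were aligned with Bowtie and the build mm8 is named, per the submitters' processing notes. The sources used here do not name the quantifier. Positions in the tables were not used, because their build could not be settled. Rows had to be usable in all 4 libraries (394 were not, none of the 37 genes), and the row with the highest mean FPKM stood for a symbol. Depth was estimated from coverage, transcript length and the bases of 1 read. Differences used log2(FPKM + 1), computed in python 3.11.15 with numpy 2.4.6, pandas 2.3.3 and scipy 1.17.1; the calculation was checked on simulated data. Groups follow the labels' titles.

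The 37 genes and the 7 pathway lists (112 of 119 listed genes have a row) were chosen with earlier results of these data known. Named genes are members that were called or the 3 highest of each group, other members by role, and up to 3 genes per pathway list with the greatest difference of the 4-OHT effects at 5 FPKM or more. Other pathway and marker genes named were chosen after their values were seen. Alternatives tried were 9: pseudocounts of 0.1 and 5, a floor of 5 FPKM and none, summed rows, rows of any status, median ratio and upper quartile rescaling, and removal of the length trend. Results for some of the listed genes are not reported here.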

Additional observations from a re-analysis of the deposited data

Results flagged for a closer look

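Among the 37 genes and the pathway genes at 1 FPKM or more in at least 1 library, 3 pathway genes had 4-OHT differences of opposite sign in Meis1f/f and control cells, with a gap of more than 1. This difference was not tested. For Tmem173 (STING) the log2 difference of 4-OHT against vehicle was 0.95 in Meis1f/f cells and -0.41 in control cells, a gap of 1.36. Its lowest library was Meis1f/f vehicle, as for 40.2% of all symbols. For Samd9l the differences were -0.19 in Meis1f/f cells and 1.39 in control cells, a gap of -1.58, and its lowest library was control vehicle. For Isg20, which reached 4.70 FPKM at most, they were -0.63 in Meis1f/f cells and 0.40 in control cells, a gap of -1.03. With its 2 transcript rows summed the differences were -0.69 in Meis1f/f cells and 0.05 in control cells, a gap of -0.74.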

How the results depend on the processing

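Of 310 recalculated counts and medians, 287 stayed within 1.5 times the reported count or, for a median, within the spread of the list's own genes, and 23 moved; of 384 values for named genes, 357 stayed within counting error and 27 moved. No called value changed sign. Of 265 recalculated medians 14 changed sign, in 10 of them between values under 0.1 in size, and of the named values 7 did, none of them called. The call of Ifih1 in control cells fell to 0 genes under a pseudocount of 5, a floor of 5 FPKM, summed rows, median ratio rescaling, upper quartile rescaling and removal of the length trend. With a pseudocount of 0.1, calls numbered 1 for 4-OHT in Meis1f/f cells (Rsad2, lower), 8 for genotype under vehicle (Irf7, Rsad2, Usp18, Ifih1, Xaf1 and Zbp1 higher, Gbp3 and Psmb8 lower), 4 under 4-OHT (Irf7, Xaf1 and Zbp1 higher, Gbp3 lower) and 2 for the difference of the 4-OHT effects (Irgm1 higher, Ifih1 lower). With a pseudocount of 5 they numbered 1 and 0 for genotype under vehicle and under 4-OHT, and with median ratio rescaling 5 under vehicle. Over all symbols the calls for 4-OHT in Meis1f/f cells, 4-OHT in control cells, genotype under vehicle, genotype under 4-OHT and the difference of the 4-OHT effects numbered 856, 682, 1450, 984 and 1148 with a pseudocount of 0.1, and 110, 33, 292, 201 and 162 with a pseudocount of 5. A floor of 5 FPKM moved the median of all members to 0.44 for 4-OHT in Meis1f/f cells, to -0.48 for genotype under vehicle and to 0.31 for the difference of the 4-OHT effects, and that of the type I targets to 0.32 and 0.020 for the same 4-OHT and genotype comparisons; it keeps only 13 higher expressed genes. It also turned the median of the GTPases to -0.41 for genotype under 4-OHT and that of the high expressed members to -0.48 for genotype under vehicle, where the GTPases lay at -0.89. For genotype under vehicle, a pseudocount of 5 gave medians of 0.15 for the type I targets and 0.15 for the low expressed members, and no floor gave 0.17 for the low expressed members. For the GTPases the 4-OHT median in Meis1f/f cells was 0.20 with a pseudocount of 5, and for the low expressed members the difference of the 4-OHT effects was -0.51 with a pseudocount of 0.1. Median ratio rescaling shifted the median of all symbols for 4-OHT in Meis1f/f cells by -0.12, and B2m there lay near 0 under each rescaling. With the length trend removed Psmb8 lay at -0.90 under vehicle, short of a call. No paired analysis was possible because each group was 1 library and no result comes from a test, and leaving out a library ends each comparison that uses it. Depth was lowest in Meis1f/f cells after 4-OHT.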

Other observations

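Among the 86 pathway genes at the floor, 4 were called the same way in both genotype comparisons (4.65%, against 2.88% of all symbols); these genes were singled out after their values were seen. Cd274, which encodes the immune checkpoint ligand PD-L1, had 12.5 and 12.6 FPKM in Meis1f/f cells after 4-OHT and after vehicle, against 5.26 and 5.10 FPKM in control cells after 4-OHT and after vehicle. For Cd274 the 4-OHT and vehicle libraries of each genotype differed by next to nothing (-0.02 and 0.04 on the log2 scale). Slfn1, a schlafen family gene, had 6.39 and 7.07 FPKM in Meis1f/f cells after 4-OHT and after vehicle, against 2.38 and 1.63 FPKM in control cells after 4-OHT and after vehicle. Ifi27l2a, a small interferon-induced protein gene, had 3.69 and 3.26 FPKM in Meis1f/f cells, against 1.06 and 0.687 FPKM in control cells, after 4-OHT and after vehicle. Ifi203, of the DNA-binding p200 family, stood lower, at 1.04 and 0.701 FPKM in Meis1f/f cells, against 4.19 and 5.25 FPKM in control cells, after 4-OHT and after vehicle. Of the 37 genes, Gbp3 alone was likewise called in both genotype comparisons.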
